A study of Mus musculus with 6 samples.

Results

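The Wnt pathway genes described here are the secreted Wnt ligands, the enzymes and carriers that export them, their receptors and secreted regulators, and the proteins that pass the signal to the nucleus. The members are protein-coding genes matched by symbol: all genes named Wnt, Fzd, Sfrp, Dkk or Rspo with a number, and 18 further named receptors and effectors. This list, like the other gene lists below, was chosen with earlier results of these data known. The rule found 59 genes among the 47643 identifiers of the count tables. RNA was sequenced from neurons of the dorsal root ganglia, taken from CD-1 mice at embryonic day 13, that carried a lentivirus with either a control hairpin (shControl, 3 libraries) or a hairpin directed at Uhrf1 (shUHRF1, 3 libraries). Strain, stage, tissue and lentiviral delivery are shared by both groups, the neurons were uninjured, and the question was how transcription differs with the hairpin against Uhrf1, a factor that binds hemimethylated DNA. The labels do not say whether libraries of a group came from separate cultures, so the p-values rest on a spread among libraries that may be only technical.

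Wnt proteins are lipid-modified signals that are fitted with their lipid by PORCN and carried to the cell surface by WLS. At the receiving cell a Frizzled receptor and the co-receptor LRP5 or LRP6 bind the ligand, a destruction complex that includes AXIN and APC stops degrading beta-catenin, and beta-catenin acts with TCF/LEF factors on target genes. A second branch runs through ROR, RYK and VANGL proteins and sets cell polarity and axon direction without beta-catenin, and R-spondins raise the number of Frizzled receptors at the surface.

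Each library held 15599776 to 22382813 reads in genes. The values below are CPM, reads per 1000000 reads in genes, scaled by TMM factors, and a gene was called when its edgeR quasi-likelihood p, adjusted by the Benjamini-Hochberg method over all 15573 genes tested, was below 0.05. Uhrf1 itself had 8, 6 and 5 reads in shControl replicates 1, 2 and 3, against 2, 1 and 5 reads in those of shUHRF1 (log2 fold change -1.39 ± 0.62, SE, edgeR adjusted p = 0.141), so its reads were too few to measure the knockdown. All 15 listed neuronal markers were tested, with sums of 18990 to 21460 CPM in shControl against 15080 to 19470 CPM in shUHRF1. 1 neuronal marker was called lower and 0 higher. With the replicate number as a block, 2 were called higher and 3 lower, while DESeq2 called 5 and limma-voom 2. Their log2 fold changes ran from -1.16 to 2.60. Of the fibroblast markers, 8 of 9 tested were called higher, as were 7 of 10 tested Schwann cell and satellite glia markers (1 was called lower), 4 of 7 tested macrophage markers and 2 of 7 tested endothelial and mural markers. With Thy1, which is also neuronal and held 79.4% of the sum, the fibroblast markers had 249.9 to 402 CPM in shControl against 185.2 to 381.3 CPM in shUHRF1. Without it they had 7.121 to 10.19 CPM in shControl against 72.61 to 166 CPM in shUHRF1, and Lum, Fap, Twist1 and Prrx1 had 0 reads in at least 1 library. Summed glial markers overlapped, with 436.2 to 543.7 CPM in shControl against 115 to 487.6 CPM in shUHRF1. Without S100b, which held 51% of that sum, they were lower in every shUHRF1 library, with 218.2 to 277.8 CPM against 75.58 to 206.7 CPM, although most single markers were called higher. Foxd3 had 0 reads in at least 1 library. Macrophage markers summed to 6.021 to 11.96 CPM in shControl against 16.53 to 40.45 CPM in shUHRF1, with Cx3cr1 and Adgre1 at 0 reads in at least 1 library. Endothelial and mural markers summed to 43.15 to 46.06 CPM and 40.91 to 58.41 CPM. Without Egfl7, which held 69.3% of that sum, they were higher in every shUHRF1 library, at 8.545 to 10.45 CPM against 16.93 to 23.67 CPM, with Cdh5, Kdr and Cldn5 at 0 reads in at least 1 library. The part of these other cell types in the changes described below was not tested, and in bulk RNA fewer cells of a type and less RNA per cell cannot be told apart.

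Genes of Wnt secretion, reception and planar polarity were called in both directions. The chaperone gene Mesd fell 8.78-fold, the polarity gene Vangl2 rose 7.25-fold and the ligand carrier gene Wls rose 4.43-fold, the 3 members with an edgeR adjusted p below 0.01. Among the R-spondins Rspo4 and Rspo1 fell and Rspo2 rose, and among the Frizzled receptors Fzd1 and Fzd8 rose and Fzd7 fell. No Wnt ligand gene was called in the main fit, which has no block, and the 4 TCF/LEF genes were too low to test. With the replicate number as a block, Wnt16 passed (edgeR adjusted p = 0.0405), and some other alternatives called Wnt16 or Wnt5a, as given below.

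In numbers, 35 of the 59 members passed the low-count filter and 15 were called, 6 higher and 9 lower in shUHRF1. That is 42.9% of tested members, beside 24% of all tested genes, of which 11.6% were called higher and 12.4% lower. The list was chosen with earlier results of these data known, so this share is a description only. The median log2 fold change was -0.08 over tested members and 0.02 over all tested genes. The groups did not overlap for 17 of the 35 members, beside 44% of all tested genes. With the replicate number as a block, 7 members were higher and 11 lower, beside 31% of all genes called in that fit. Upper-quartile scaling shifted the median of all genes by 0.125 on the log2 scale and gave 6 higher and 5 lower members, with 2512 higher and 1378 lower over all genes. The number of called members was 9, 9 and 5 when shControl replicates 1, 2 and 3 were left out in turn, and 8 when shUHRF1 replicate 3 was. Of the tested members, Sfrp5 alone reached the filter's level in no shControl library, so it could enter the test only by being higher in shUHRF1.

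**Figure D1:**
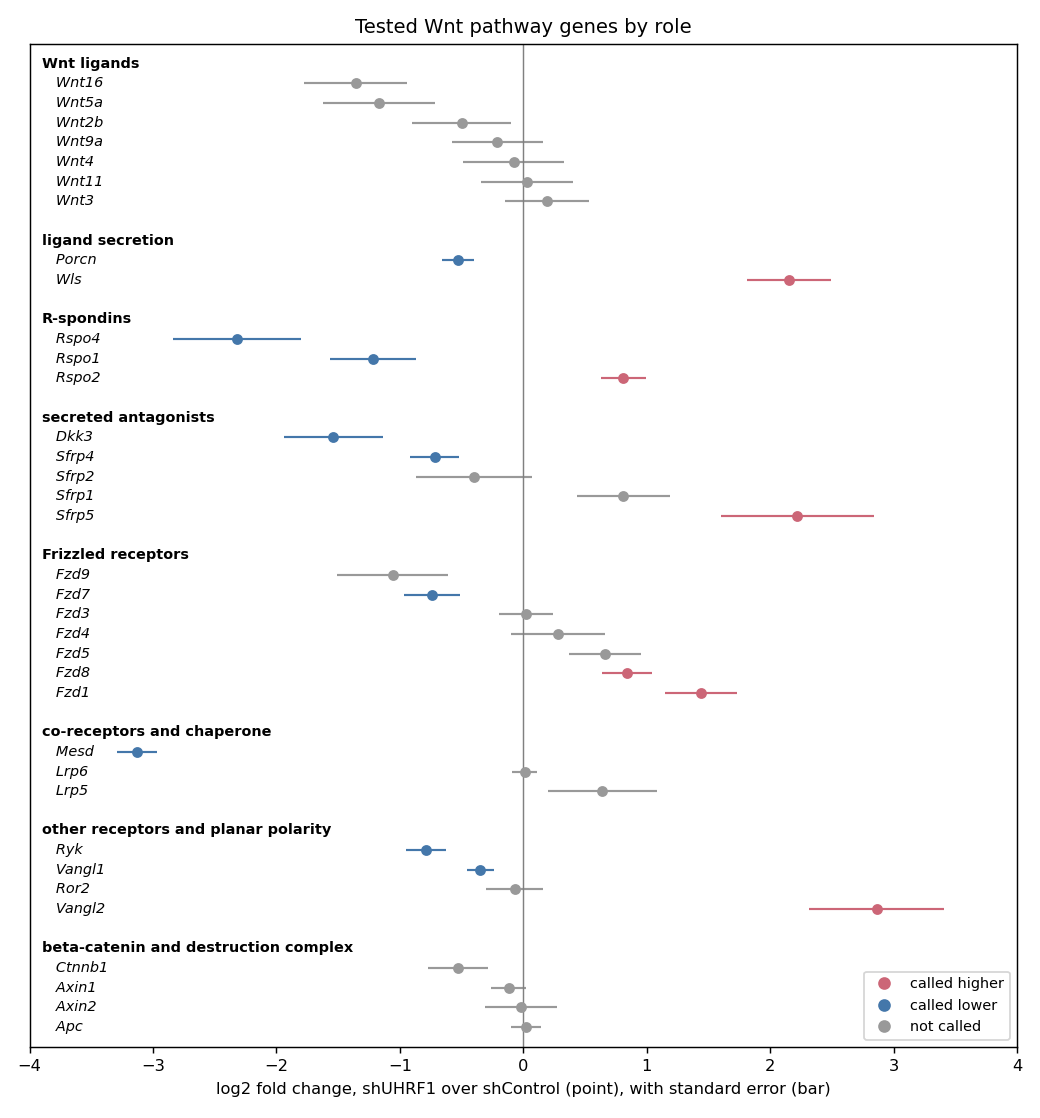
Log2 fold change of shUHRF1 over shControl (x axis) for the 35 tested Wnt pathway genes, grouped by role; points are edgeR estimates, bars are standard errors, red and blue mark genes called higher and lower. Called genes lie on both sides in 5 of the groups, and the 4 genes of beta-catenin and its destruction complex are all grey. In the secreted antagonists this rests on Sfrp5 alone, which could enter the test only by being higher in shUHRF1.

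Of the called members, 5 kept their call in every other analysis tried at the same threshold: Mesd, Ryk, Vangl2, Wls and Fzd1. Their promoter windows are shown because these are the members whose change the alternatives left standing, and because the hairpin's target reads methylated CpG sites. Each sequence is the RefSeq window on GRCm38.p6 from 250 bases before to 50 bases after an annotated start, 5′ to 3′ on the gene's strand, and capitals mark CpG dinucleotides. They lie at chr1:172027246-172027545 on the minus strand (Vangl2, 21 CpG), chr3:159839400-159839699 on the plus strand (Wls, 11 CpG), chr5:4758167-4758466 on the minus strand (Fzd1, 16 CpG), chr7:83884139-83884438 on the plus strand (Mesd, 34 CpG) and chr9:102834670-102834969 on the plus strand (Ryk, 42 CpG). The Vangl2 start used by RefSeq is 1149 bases from the GENCODE gene start, and Mesd has 3 RefSeq windows, of which the one nearest to its GENCODE start is shown.
Vangl2: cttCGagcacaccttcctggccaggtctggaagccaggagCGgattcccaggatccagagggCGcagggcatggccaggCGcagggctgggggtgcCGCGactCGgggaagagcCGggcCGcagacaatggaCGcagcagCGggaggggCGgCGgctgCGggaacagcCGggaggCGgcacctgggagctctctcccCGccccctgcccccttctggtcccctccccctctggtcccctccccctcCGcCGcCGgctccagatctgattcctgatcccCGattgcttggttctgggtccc
Wls: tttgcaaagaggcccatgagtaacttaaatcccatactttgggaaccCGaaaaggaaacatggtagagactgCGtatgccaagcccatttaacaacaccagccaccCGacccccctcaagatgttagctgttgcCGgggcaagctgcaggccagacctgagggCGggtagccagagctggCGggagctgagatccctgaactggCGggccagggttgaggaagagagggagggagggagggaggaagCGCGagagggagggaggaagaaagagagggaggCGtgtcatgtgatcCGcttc
Fzd1: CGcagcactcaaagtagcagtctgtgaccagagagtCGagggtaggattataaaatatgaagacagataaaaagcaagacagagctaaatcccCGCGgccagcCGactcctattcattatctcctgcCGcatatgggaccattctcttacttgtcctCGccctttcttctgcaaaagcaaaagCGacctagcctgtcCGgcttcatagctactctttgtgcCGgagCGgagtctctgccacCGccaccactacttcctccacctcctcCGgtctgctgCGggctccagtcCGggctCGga
Mesd: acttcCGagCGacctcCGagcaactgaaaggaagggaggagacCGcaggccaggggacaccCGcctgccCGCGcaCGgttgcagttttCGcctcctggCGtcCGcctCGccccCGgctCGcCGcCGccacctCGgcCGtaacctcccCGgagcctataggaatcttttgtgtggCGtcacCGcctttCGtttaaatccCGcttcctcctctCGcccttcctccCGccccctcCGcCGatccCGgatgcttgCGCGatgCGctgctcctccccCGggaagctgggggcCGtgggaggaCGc
Ryk: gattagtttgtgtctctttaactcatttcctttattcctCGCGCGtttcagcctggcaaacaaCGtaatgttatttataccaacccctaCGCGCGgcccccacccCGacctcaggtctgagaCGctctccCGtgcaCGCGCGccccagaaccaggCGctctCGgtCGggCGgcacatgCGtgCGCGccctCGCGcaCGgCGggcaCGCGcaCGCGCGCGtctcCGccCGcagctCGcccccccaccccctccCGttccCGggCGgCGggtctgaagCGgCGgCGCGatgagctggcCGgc

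The 3 windows of genes that rose held 11 to 21 CpG and the 2 of genes that fell held 34 and 42. Over all called members with a window the same order was seen, as a description without a test. The higher members Wls, Fzd1 and Vangl2 had 11 to 21 CpG, and the 5 lower members, Fzd7, Rspo1, Rspo4, Mesd and Ryk, had 24 to 42. Sfrp5, with 15 CpG, is set apart because it could enter the test only by being higher in shUHRF1. The called members Fzd8, Rspo2, Dkk3, Sfrp4, Porcn and Vangl1 had no window. The 13 members that were tested and not called ranged from 10 to 58, with a median of 38, so they span both sets. The median over all 32851 windows was 7 CpG, and over the 39 members with a window it was 31. The sets are unlike, since a gene can have several windows in the first and each member has only its nearest in the second. No methylation was measured in these libraries. The TCF/LEF word CTTTGA or its reverse complement TCAAAG was found in 4 of the 39 member windows (10.3%), those of Dkk1, Fzd1, Ror1 and Wnt11, beside 16% of all windows. Median GC was 70.7% in member windows and 52.7% in all windows, and the shares were not adjusted for it.

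The ligand genes were low and none of them was called in the main edgeR fit (TMM factors, filterByExpr, no block), although some alternatives called Wnt5a or Wnt16. Of 19 Wnt genes, 12 had fewer than 10 reads in every library and 7 were tested. In that fit 0 were called and 2 had an unadjusted p below 0.05, while DESeq2 called 2 and limma-voom 1. Wnt11, a ligand of the polarity branch, had the highest mean CPM per kb of exon of the Wnt genes, with 9.58, 6.93 and 15.5 CPM in shControl against 14.6, 6.18 and 12.0 CPM in shUHRF1. Its groups overlapped fully (log2 fold change 0.03 ± 0.37, SE, edgeR adjusted p = 0.961). Wnt5a, which guides axons through ROR and RYK receptors, had 9.52, 3.95 and 7.65 CPM in shControl against 1.93, 5.24 and 2.32 CPM in shUHRF1. The second shUHRF1 library lay inside the shControl range, and the gene did not pass (-1.17 ± 0.45, SE, edgeR adjusted p = 0.0972). It was called by DESeq2 (adjusted p = 0.0455), with no low-count filter (edgeR adjusted p = 0.0159), without shUHRF1 replicate 2 (log2 fold change -1.75, edgeR adjusted p = 0.0194) and on library pairs 1 and 3 alone (-2.02, edgeR adjusted p = 0.00971).

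Wnt16 had 2.56, 3.88 and 3.2 CPM in shControl against 1.44, 0.53 and 1.74 CPM in shUHRF1. Every shUHRF1 library lay below every shControl library, at an edgeR adjusted p of 0.0502, which was 0.0405 with the replicate block and 0.0188 by DESeq2. Limma-voom also called it (adjusted p = 0.0402), as did edgeR with RLE factors (0.0499), the stricter filter (0.0471) and no low-count filter (0.0151). The gene was called in 0 of the 6 fits with a library left out (edgeR adjusted p from 0.0526 to 0.128). On library pairs 1 and 3 it was not called either (edgeR adjusted p = 0.121). Wnt3, Wnt2b, Wnt4 and Wnt9a overlapped between the groups, with log2 fold changes from -0.50 to 0.19. The remaining 12, among them the classical beta-catenin ligands Wnt1 and Wnt3a, had at most 8 reads in any library, so a change in them was not detectable at this depth. Summed over all 19 ligands, the level was 28.46, 22.46 and 35.44 CPM in shControl against 25.91, 19.9 and 22.81 CPM in shUHRF1, and the sums overlapped.

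Both genes that handle the ligand before release were called, in opposite directions. Wls (ENSMUSG00000028173.10, chromosome 3, 159839672 to 159938664, GRCm38) encodes the carrier that takes lipid-bearing Wnt to the cell surface. It had 1.45, 1.49 and 1.58 CPM in shControl against 8.49, 3.77 and 7.8 CPM in shUHRF1, so its lowest shUHRF1 library was above every shControl library (log2 fold change 2.15 ± 0.34, SE, edgeR adjusted p = 0.00456). Porcn (ENSMUSG00000031169.13, chromosome X, 8193848 to 8206525), the acyltransferase that adds the lipid, had 49, 63.5 and 63 CPM in shControl against 39.5, 39.1 and 42.9 CPM in shUHRF1 (-0.53 ± 0.13, SE, edgeR adjusted p = 0.0246). Per kb of exon, Porcn was the higher of the pair in both groups, with 19.5 and 13.5 CPM per kb, beside 0.171 and 0.76 for Wls. The Porcn call was lost with upper-quartile factors (edgeR adjusted p = 0.0627), without shControl replicate 2 (0.0658), shControl replicate 3 (0.0918) or else shUHRF1 replicate 3 (0.0581) and on library pairs 1 and 3 (0.114).

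R-spondins, secreted amplifiers of Wnt signalling that bind LGR receptors, were all called where they were measurable. Rspo4 (ENSMUSG00000032852.3, chromosome 2, 151842927 to 151874668) had 51.2, 56.6 and 105 CPM in shControl against 4.76, 15.4 and 22.8 CPM in shUHRF1. The groups were far apart, and shUHRF1 replicate 1 was the lowest library (log2 fold change -2.32 ± 0.52, SE, edgeR adjusted p = 0.0164). Rspo1 (ENSMUSG00000028871.7, chromosome 4, 124986430 to 125009099) had 48.8, 32.5 and 60.7 CPM in shControl against 11.1, 21.1 and 29.1 CPM in shUHRF1 (-1.22 ± 0.35, SE, edgeR adjusted p = 0.0396). Its groups came close, at 32.5 and 29.1 CPM. Rspo2 (ENSMUSG00000051920.6, chromosome 15, 43020794 to 43170826) went the other way, with 18, 13.3 and 15.4 CPM in shControl against 22.3, 31.7 and 28 CPM in shUHRF1 (0.81 ± 0.18, SE, edgeR adjusted p = 0.0155). Rspo3 had 0 reads in every shControl library and 5, 0 and 1 reads in shUHRF1.

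In shControl the R-spondins stood at 30 ± 12.6 (Rspo4), 24.4 ± 7.32 (Rspo1) and 3.04 ± 0.464 (Rspo2) CPM per kb (SD, n = 3). In shUHRF1 they stood at 6.04 ± 3.82, 10.5 ± 4.63 and 5.35 ± 0.923 CPM per kb (SD, n = 3). Rspo4 and Rspo1 differed by less than their spread in shControl, where both lay above Rspo2, and Rspo4 and Rspo2 differed by less than their spread in shUHRF1. Rspo4 lost its call without shControl replicate 3 (log2 fold change -1.92, edgeR adjusted p = 0.0597) and on library pairs 1 and 3 (-2.52, 0.0566). Rspo1 lost it without shControl replicate 1 (edgeR adjusted p = 0.0982), shControl replicate 3 (0.132), shUHRF1 replicate 1 (0.0517) or else shUHRF1 replicate 2 (0.0654), and on library pairs 1 and 3 (0.0617). Rspo2 lost it without shControl replicate 2 (edgeR adjusted p = 0.0519), shControl replicate 3 (0.0646) or else shUHRF1 replicate 3 (0.0583), and on library pairs 1 and 3 (0.0851). The signs did not change in any of these fits.

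The genes grouped by name as secreted antagonists were carried mostly by 1 gene. Dkk3 (ENSMUSG00000030772.5, chromosome 7, 112116017 to 112159057), a member of the Dickkopf family, held 78.8% of their summed CPM. Without it the group summed to 11.96 to 15.98 CPM in shControl against 10.96 to 14.34 CPM in shUHRF1, and the sums overlapped. Dkk3 fell from 111, 56.2 and 57.6 CPM in shControl to 15.2, 41.2 and 21.3 CPM in shUHRF1 (log2 fold change -1.54 ± 0.40, SE, edgeR adjusted p = 0.0281). shControl replicate 1 was the highest library and shUHRF1 replicate 1 the lowest, and the groups did not overlap. Over the 6 fits that leave out a library the log2 fold change was between -2.06 and -1.16, and on library pairs 1 and 3 it was -2.21. The call was lost without shControl replicate 1 (edgeR adjusted p = 0.0891), shControl replicate 3 (0.0522), shUHRF1 replicate 1 (0.0544) or else shUHRF1 replicate 3 (0.1).

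Of the Sfrp genes, whose products bind Wnt ligands outside the cell, Sfrp4 was called lower, and Sfrp5, whose direction the filter fixed, was called higher. Sfrp4 had 8.3, 10 and 10.7 CPM in shControl against 6.92, 5.12 and 5.52 CPM in shUHRF1 (log2 fold change -0.72 ± 0.20, SE, edgeR adjusted p = 0.0335). Sfrp5 had 1, 6 and 3 reads in shControl against 13, 14 and 27 reads in shUHRF1 (2.22 ± 0.62, SE, edgeR adjusted p = 0.0365). Its groups did not overlap, on few reads, and the filter admits it only through shUHRF1. Sfrp1 had 2.21, 2.85 and 3.97 CPM in shControl against 2.83, 6.71 and 6.44 CPM in shUHRF1, with overlapping groups (edgeR adjusted p = 0.157, and 0.0463 with the replicate block). Sfrp2 did not pass either (edgeR adjusted p = 0.592). Dkk1, Dkk2 and Dkk4 had at most 14 reads in any library and were not tested. Sfrp4 lost its call with upper-quartile factors (edgeR adjusted p = 0.0612), without shControl replicate 2 (0.0795), shControl replicate 3 (0.123), shUHRF1 replicate 2 (0.0629) or else shUHRF1 replicate 3 (0.101), and on library pairs 1 and 3 (0.138). The Sfrp5 log2 fold change was between 1.78 (without shControl replicate 1) and 3.03 (without shControl replicate 2) with a library left out, and 3.09 on library pairs 1 and 3. Sfrp5 lost its call without shControl replicate 1 (edgeR adjusted p = 0.124), shControl replicate 3 (0.142), shUHRF1 replicate 2 (0.0554) or else shUHRF1 replicate 3 (0.134).

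**Figure D2:**
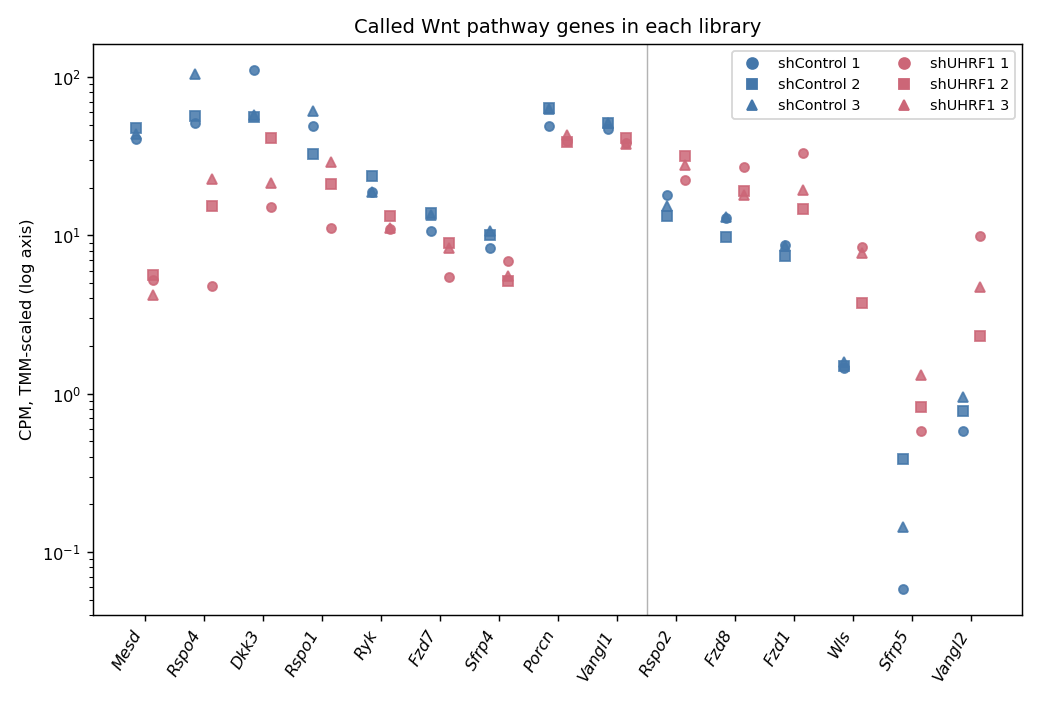
CPM (y axis, log scale) of the 15 called members in each of the 6 libraries, shControl in blue and shUHRF1 in red, with marker shape for the replicate number; genes run from the largest fall at the left to the largest rise at the right. The shUHRF1 libraries of Mesd sit between 4.21 and 5.59 CPM, below the 40.6 to 47.5 CPM of shControl, while Vangl2 spreads from 2.3 to 9.92 CPM in shUHRF1.

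Frizzled receptors, the membrane proteins that bind Wnt, were called in both directions. Fzd1 (ENSMUSG00000044674.6, chromosome 5, 4753839 to 4758035) had 8.65, 7.38 and 8.61 CPM in shControl against 33, 14.6 and 19.4 CPM in shUHRF1 (log2 fold change 1.44 ± 0.29, SE, edgeR adjusted p = 0.0112). The shControl libraries lay close together and every shUHRF1 library was above them. Fzd8 had 12.8, 9.84 and 13 CPM in shControl against 26.9, 19 and 17.9 CPM in shUHRF1 (0.84 ± 0.20, SE, edgeR adjusted p = 0.0221). Fzd7 had 10.7, 13.9 and 13.5 CPM in shControl against 5.43, 9.01 and 8.33 CPM in shUHRF1 (-0.74 ± 0.23, SE, edgeR adjusted p = 0.0479). Fzd3, which axons use for guidance in the polarity branch, had 26.6 ± 5.98 and 27 ± 6.14 CPM (SD, n = 3), with overlapping groups (log2 fold change 0.02 ± 0.22, SE, edgeR adjusted p = 0.967). Fzd9 had 2.44, 5.24 and 4.93 CPM in shControl against 0.943, 2.89 and 2.28 CPM in shUHRF1 (edgeR adjusted p = 0.129, and 0.0123 with the replicate block).

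Fzd4 and Fzd5 were low and not called (edgeR adjusted p = 0.643 and 0.14). Fzd2, Fzd6 and Fzd10 were not tested, and Fzd10 had 1, 0 and 3 reads in shControl against 8, 6 and 6 reads in shUHRF1. Per kb of exon, the order in shControl was Fzd7 at 2.8 ± 0.375, Fzd3 at 2.08 ± 0.467, Fzd8 at 1.99 ± 0.298, Fzd1 at 1.96 ± 0.172 and Fzd9 at 1.83 ± 0.67 CPM per kb (SD, n = 3), where the last 4 differ by less than their spread. In shUHRF1 it was Fzd1 at 5.32 ± 2.28, Fzd8 at 3.56 ± 0.82, Fzd3 at 2.1 ± 0.479, Fzd7 at 1.67 ± 0.419 and Fzd9 at 0.887 ± 0.433 CPM per kb (SD, n = 3). By group mean, Fzd7 was the highest in shControl and Fzd1 in shUHRF1. The SD ranges of Fzd7 and Fzd3 overlapped in shControl, as did those of Fzd1 and Fzd8 in shUHRF1, so these ranks are not firm. Fzd8 lost its call without shControl replicate 1 (edgeR adjusted p = 0.0602), shControl replicate 2 (0.0682) or shControl replicate 3 (0.0621), and on library pairs 1 and 3 (0.0665). Fzd7 lost it with RLE factors (edgeR adjusted p = 0.0501), upper-quartile factors (0.0845), the stricter filter (0.0596), on library pairs 1 and 3 (0.0927), and without shControl replicate 1 (0.0686), shControl replicate 2 (0.116), shControl replicate 3 (0.141), shUHRF1 replicate 1 (0.0715) or else shUHRF1 replicate 3 (0.0956).

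The gene of the co-receptors' chaperone fell, and neither co-receptor gene was called. Mesd (ENSMUSG00000038503.15, chromosome 7, 83884466 to 83901532) encodes the endoplasmic reticulum chaperone that folds LRP5 and LRP6 so that they reach the membrane. It had 699, 733 and 914 reads in shControl against 116, 95 and 87 reads in shUHRF1. In CPM this was 40.6, 47.5 and 43.7 against 5.21, 5.59 and 4.21, with both groups tight and far apart (log2 fold change -3.13 ± 0.16, SE, edgeR adjusted p = 0.000205). Over the 6 fits that leave out a library the log2 fold change was between -3.24 and -3.03. An annotated gene of the same strand, Gm49493, shares 23.8% of the exonic bases of Mesd and had 16 to 32 reads, and reads in that stretch may be left out of both genes by the counting.

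Lrp6, the co-receptor, had 53.7, 54.4 and 50.9 CPM in shControl against 53.3, 52.1 and 55.3 CPM in shUHRF1, the narrowest spread of the 35 tested members by standard error (log2 fold change 0.01 ± 0.10, SE, edgeR adjusted p = 0.936). Lrp5 was low, at 12 to 43 reads, and did not pass (edgeR adjusted p = 0.338). Per kb of exon, Mesd stood above Lrp6 in shControl, at 7.9 ± 0.618 against 3.88 ± 0.137 CPM per kb (SD, n = 3). In shUHRF1 it stood below Lrp6, at 0.901 ± 0.128 against 3.92 ± 0.118 CPM per kb (SD, n = 3).

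Among the polarity genes, Vangl2 rose and Vangl1 fell. Vangl2 (ENSMUSG00000026556.15, chromosome 1, 172000960 to 172028444), a membrane protein of the planar polarity core, had 10, 12 and 20 reads in shControl against 221, 39 and 97 reads in shUHRF1. Its CPM values were 0.581, 0.777 and 0.957 against 9.92, 2.3 and 4.7 (log2 fold change 2.86 ± 0.55, SE, edgeR adjusted p = 0.00937). The shUHRF1 libraries differed widely among themselves, and without shUHRF1 replicate 1, the highest, the log2 fold change was 2.17. Vangl1 had 47, 51 and 51.3 CPM in shControl against 38.3, 41.5 and 37.7 CPM in shUHRF1, a small fall near the threshold (-0.35 ± 0.11, SE, edgeR adjusted p = 0.0492). Per kb of exon Vangl1 stayed above Vangl2, at 6.96 and 5.47 CPM per kb against 0.11 and 0.807.

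Ryk (ENSMUSG00000032547.12, chromosome 9, 102834917 to 102908305), a Wnt receptor of axons, had 18.8, 23.8 and 18.9 CPM in shControl against 11, 13.3 and 11.2 CPM in shUHRF1. The groups did not overlap, and the fall was 1.73-fold (log2 fold change -0.79 ± 0.16, SE, edgeR adjusted p = 0.0115). Ror2, the measurable ROR gene, had 15.8 ± 3.43 and 15.1 ± 3.72 CPM (SD, n = 3) without passing (log2 fold change -0.07 ± 0.23, SE, edgeR adjusted p = 0.866), and Ror1 had at most 3 reads. The Vangl1 call was kept in 1 of the 6 fits with a library left out, that without shUHRF1 replicate 2. It was lost with limma-voom (adjusted p = 0.0518), and in edgeR with RLE factors (adjusted p = 0.0502), upper-quartile factors (0.181), no low-count filter (0.0967), the stricter filter (0.0752) and library pairs 1 and 3 (0.0998). Without shControl replicates 1, 2 and 3 in turn its edgeR adjusted p was 0.0873, 0.103 and 0.148, and without shUHRF1 replicates 1 and 3 it was 0.0834 and 0.14.

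**Figure D3:**
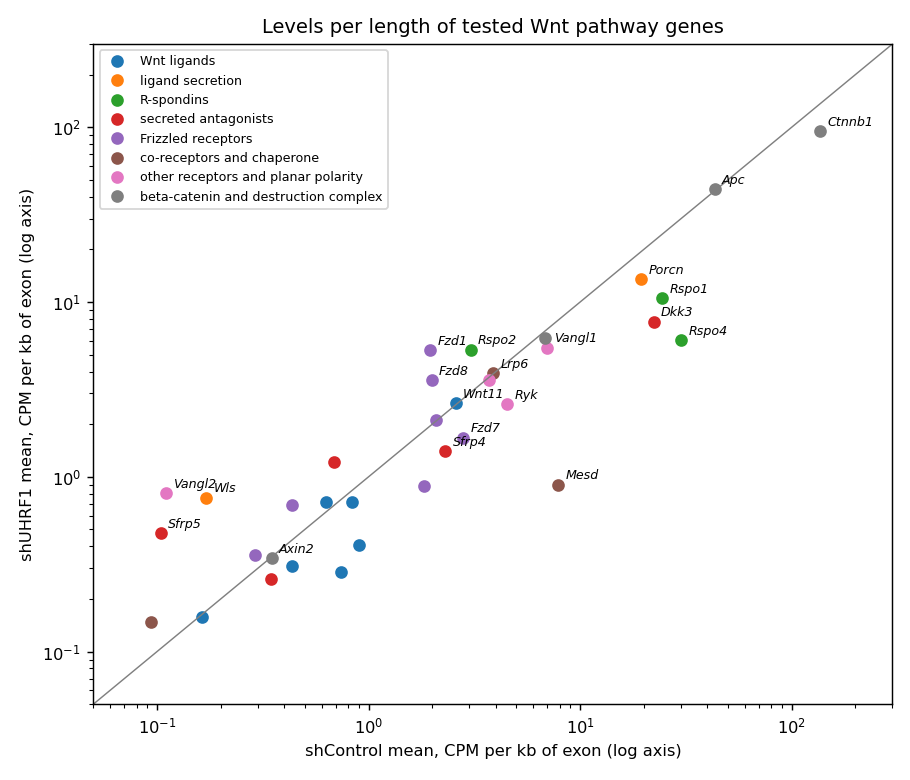
Mean level per kb of exon in shControl (x axis) and shUHRF1 (y axis), both in CPM per kb on log axes, for the 35 tested members, coloured by role; the line marks equal levels. Ctnnb1 and Apc sit at the top, Mesd lies furthest below the line, and Vangl2, Wls and Sfrp5 lie furthest above it at low levels.

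Of the beta-catenin and destruction complex genes among the members, Ctnnb1 and Apc were abundant and Axin2 was low. By edgeR 0 of these 4 genes were called, beside 24% of all tested genes, with 0 at an unadjusted p below 0.05, 0 by DESeq2 and 0 by limma-voom. Ctnnb1 (ENSMUSG00000006932.16, chromosome 9, 120929216 to 120960507), which encodes beta-catenin, had 686, 736 and 714 CPM in shControl against 311, 666 and 499 CPM in shUHRF1. All shUHRF1 libraries lay below shControl but they ranged widely, and the gene did not pass (log2 fold change -0.53 ± 0.24, SE, edgeR adjusted p = 0.151). With a library left out, its log2 fold change ran from -0.84 to -0.29, the latter without shUHRF1 replicate 1 (edgeR adjusted p = 0.191). It passed without shUHRF1 replicate 2 (-0.84, edgeR adjusted p = 0.0259) and with no low-count filter (-0.57, edgeR adjusted p = 0.0371). Its exons overlap those of Ulk4 on the opposite strand over 14.6% of their length, and Ulk4 had 45 to 130 reads.

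Apc, the scaffold of the destruction complex, had 699 ± 57.9 and 711 ± 50.5 CPM (SD, n = 3), with a fitted log2 fold change at 0.02 ± 0.12 (SE, edgeR adjusted p = 0.908). Axin1, a further scaffold, had 26 ± 2.54 and 23.9 ± 2.38 CPM (SD, n = 3, log2 fold change -0.12, edgeR adjusted p = 0.558). Axin2, both a scaffold and a target gene commonly read as a sign of beta-catenin signalling, had 30, 30 and 43 reads in shControl against 52, 24 and 39 reads in shUHRF1. Its groups overlapped (log2 fold change -0.02 ± 0.29, SE, edgeR adjusted p = 0.968). Per kb of exon the order in shControl was Ctnnb1 at 137, Apc at 43.4, Axin1 at 6.8 and Axin2 at 0.348 CPM per kb, and it was the same in shUHRF1 at 94.8, 44.1, 6.24 and 0.341.

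The nuclear partners of beta-catenin were near 0. The 4 TCF/LEF genes together had 3 to 17 reads per library, and none was tested. Tcf7 had 2, 13 and 9 reads in shControl against 10, 5 and 10 in shUHRF1, Lef1 had 1, 0 and 0 against 2, 1 and 3, and Tcf7l1 and Tcf7l2 had at most 3 and 4 reads. A change in them was not detectable at this depth.

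Of 65 other pathway genes outside the rule, 56 were tested, and 6 were called higher and 16 lower, or 39.3% of those tested, beside 24% of all tested genes (11.6% higher and 12.4% lower). Their median log2 fold change was -0.15, beside 0.02 over all tested genes. This list was also chosen with earlier results of these data known, so its share is a description only. Dact1, an adaptor that binds Dishevelled, fell from 37.6, 24.3 and 30.1 CPM to 5.61, 8.07 and 6.49 CPM (log2 fold change -2.19 ± 0.22, SE, edgeR adjusted p = 0.000886). Its relative Dact3 fell by 1.03 on the log2 scale (edgeR adjusted p = 0.00272), and Ctbp1, a corepressor, fell by 1.12 (edgeR adjusted p = 0.00154). Daam1, which links Dishevelled to actin assembly, fell by 0.63 (edgeR adjusted p = 0.00613). Ankrd6, a Dishevelled partner also called Diversin, rose from 29.3, 32.3 and 25.3 CPM to 67.9, 73 and 69.2 CPM (1.27 ± 0.12, SE, edgeR adjusted p = 0.000867).

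The glypican Gpc3 rose by 1.76 on the log2 scale (edgeR adjusted p = 0.00181), the membrane antagonist Tpbg by 1.29 (edgeR adjusted p = 0.00479) and the corepressor Tle3 by 1.93 (edgeR adjusted p = 0.00529). These 8 genes kept their calls in all 6 fits with a library left out. Dvl1, a Dishevelled gene, went from 154 ± 7.21 to 113 ± 3.3 CPM (SD, n = 3, edgeR adjusted p = 0.0156), and the kinase gene Gsk3b from 405 ± 80.5 to 344 ± 38.8 CPM without passing (edgeR adjusted p = 0.346). The Dvl1 call was kept in 3 of the 6 fits with a library left out. Other relay genes of the cytoplasm, named after their values were seen, were also called lower, among them the ubiquitin ligase subunits Fbxw11 (log2 fold change -0.55, edgeR adjusted p = 0.00852) and Btrc (-0.44, 0.0417). The casein kinase genes Csnk1g2 (-0.65, edgeR adjusted p = 0.015), Csnk1d (-0.62, 0.0193) and Csnk1g3 (-0.34, 0.0408) were called lower too. The other listed casein kinase genes were not called: Csnk1a1 (-0.16, edgeR adjusted p = 0.339), Csnk1e (0.03, 0.87) and Csnk1g1 (0.12, 0.471). Nor were the relay genes Dvl2 (0.01, edgeR adjusted p = 0.979), Dvl3 (-0.44, 0.062), Gsk3a (-0.10, 0.673), Amer1 (0.19, 0.239), Tnks (0.05, 0.832) and Tnks2 (0.07, 0.62). With a library left out, the call was kept in 6 of 6 fits for Fbxw11, 4 for Csnk1g2, 3 for Csnk1d, 2 for Btrc and 0 for Csnk1g3.

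Genes that TCF/LEF and beta-catenin are known to raise in other tissues were called at a share near that of all genes. Of 25 listed, 11 were tested, 1 was called higher and 2 lower (27.3% of those tested, beside 24% of all tested genes), with a median log2 fold change of -0.14. The targets too were listed with earlier results of these data known, so their share is a description only. Ccnd1, a cyclin, had 2.31 ± 0.326 CPM in shControl against 4.52 ± 1.29 CPM in shUHRF1 (SD, n = 3, log2 fold change 0.96, edgeR adjusted p = 0.0464). Tcf4, a helix-loop-helix factor that is not a TCF/LEF protein, fell from 51.6 ± 5.14 to 29.4 ± 2.32 CPM (SD, n = 3, -0.81, edgeR adjusted p = 0.00418), and the adhesion gene Nrcam from 349 ± 18.1 to 239 ± 51.8 CPM (SD, n = 3, -0.55, edgeR adjusted p = 0.0426). The calls of Ccnd1 and Nrcam were each kept in 1 of the 6 fits with a library left out, and that of Tcf4 in 6. The number of called targets was 1 when any of the shControl replicates or else shUHRF1 replicate 3 was left out. Lgr5, a target and an R-spondin receptor, had 4, 6 and 4 reads in shControl against 12, 8 and 9 reads in shUHRF1 and was not tested.

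**Figure D4:**
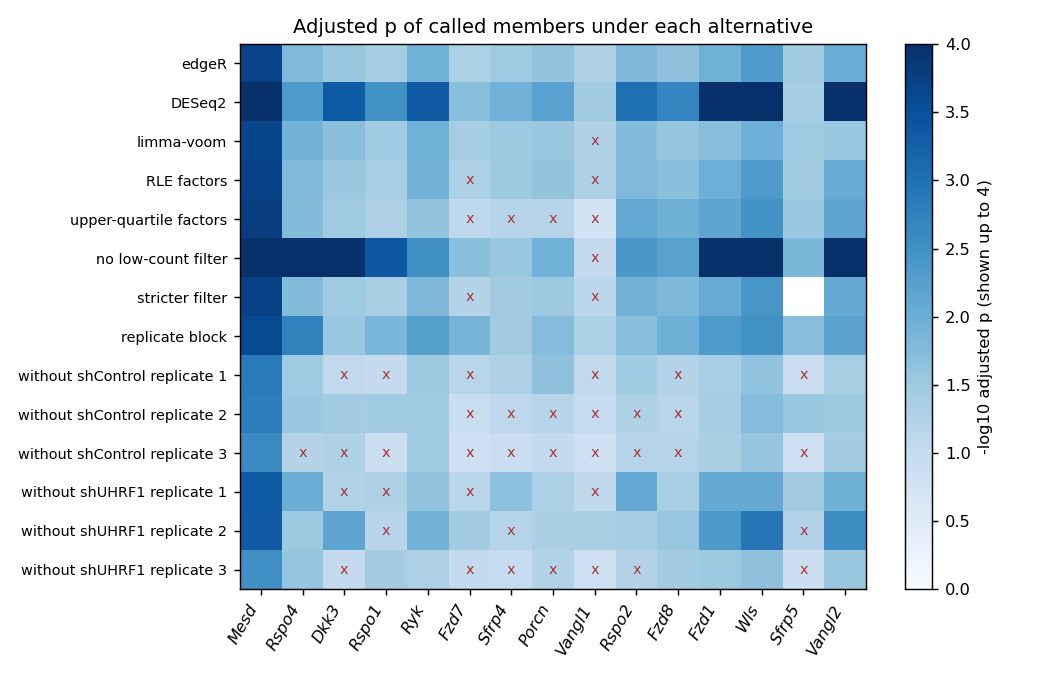
Adjusted p of the 15 called members (columns) under each alternative (rows), as -log10 shown up to 4 by shade; a red x marks a lost call and the white cell a gene that the stricter filter removed. The columns of Mesd, Ryk, Fzd1, Wls and Vangl2 hold no x.

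Libraries within shUHRF1 were not alike. shUHRF1 replicate 1 was the library furthest from shControl for 9 of the 15 called members (60%), and over all called genes it was so for 61.9%. Without that library 12 members were called, and without shUHRF1 replicate 2 there were 14.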

How the data were processed

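Total RNA of 6 libraries was measured. The authors deposited raw read counts per gene, 1 table per library. Per the submitters' processing notes, STAR and HTSeq were among the tools and mm10 was the build. No version, annotation release or strand setting is stated in the labels or file headers, so reads of overlapping genes on opposite strands cannot be told apart. The summary lines held 8.43% to 17.18% of entries as reads outside genes. Ambiguous reads were 2.12% to 2.27% and reads without a unique alignment 30.5% to 37.28%, and these lines stayed out of all totals. Symbols, coordinates and exonic lengths came from GENCODE M21 on GRCm38 (47224 of 47643 identifiers matched).

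From the counts, edgeR 4.0.16 in R 4.3.3 compared the groups over all genes (filterByExpr, TMM factors, quasi-likelihood F test, two-sided, no block). Standard errors were derived from the F statistic. The fit was also run on simulated counts drawn independently for each library. That setting has no pairing, so it does not check the fit for paired libraries. The members and gene lists were chosen with earlier results of these data known. Every called member was named in full, other tested members with a mean of at least 5 CPM by group values, and of the other 2 lists up to 4 called genes per direction with the smallest p, plus Gsk3b, Dvl1 and Lgr5. Promoter windows were RefSeq's, matched by symbol for 39 of 59 members.

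Libraries of the same replicate number deviated together (correlations of deviations from group means 0.326, 0.363 and 0.44), so the numbers were taken to pair the libraries, as inferred from the data and not the labels. The calls, standard errors and adjusted p-values nevertheless come from fits without that pairing, except where the block is named. With the block, 18 members and 4820 of all tested genes were called, beside 15 and 3735 without it. Alternatives were DESeq2 1.42.0, limma-voom (limma 3.58.1), RLE and upper-quartile factors, no filter, a filter of 2 CPM in 3 libraries, the replicate block, other thresholds and each library left out. A fit on library pairs 1 and 3 was chosen after seeing the data, because both libraries numbered 2 had more reads outside genes than the rest of their group.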

Additional observations from a re-analysis of the deposited data

How the results depend on the processing

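Of the 15 called members, 11 kept their call in every alternative that keeps all 6 libraries and the threshold and in which they could be tested, and 5 also in each of the 6 fits with a library left out; all 15 kept their direction in each of these fits. With a library left out, 5 to 14 members, 12 to 20 other pathway genes, 1 to 4 targets and 1768 to 3888 of all genes were called. At an adjusted p below 0.01 these counts were 3, 11, 1 and 1434, and with an added 2-fold minimum they were 8, 9, 0 and 1753 by edgeR. Library pairs 1 and 3 gave 8 members, and no low-count filter gave 5 targets. The replicate block gave 18 members, adding Wnt16, Fzd9 and Sfrp1, and lost no called member. Members that were not called changed sign around 0 in some fits. With no low-count filter the log2 fold change was -0.01 for Apc, -0.02 for Fzd3, 0.00 for Wnt11 and -0.02 for Lrp6, and with upper-quartile factors it was 0.06 for Ror2 and 0.00 for Axin1. With a library left out it ranged from -0.05 to 0.06 for Apc, -0.14 to 0.19 for Fzd3, -0.24 to 0.40 for Wnt11, -0.25 to 0.11 for Ror2 and -0.02 to 0.02 for Lrp6. The cause of these changes was not tested, except that fewer libraries and a stricter threshold leave fewer calls by construction. Sfrp5 was removed by the stricter filter. Depth limits the 24 untested members, which had at most 18 reads in any library.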

Other observations

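A few pairs of Wnt genes lie side by side in the genome, and in some of these pairs the members differed in reads, which are not scaled for length here. Wnt9b and Wnt3 are 24.3 kb apart on chromosome 11, and Wnt3 had 26 to 51 reads per library while Wnt9b had 0 to 5. Wnt3a and Wnt9a are 16.2 kb apart on the same chromosome, and Wnt9a had 24 to 81 reads while Wnt3a had 0 or 1. In the pairs Wnt6 and Wnt10a (6.19 kb apart on chromosome 1) and Wnt10b and Wnt1 (11.7 kb apart on chromosome 15) each gene had at most 6 reads.

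The receptors and regulators that R-spondins act through, named here after their values were seen, were measured beside them. Lgr4, an R-spondin receptor, had 60.4 ± 6.58 CPM in shControl against 54.2 ± 5.44 CPM in shUHRF1 (SD, n = 3, edgeR adjusted p = 0.422). Znrf3, a ubiquitin ligase that removes Frizzled receptors and is held back by R-spondins, had 9.18 ± 1.08 and 8.37 ± 3.21 CPM (SD, n = 3, edgeR adjusted p = 0.772). Its relative Rnf43 had 0, 4 and 0 reads in shControl against 13, 3 and 9 reads in shUHRF1 and was not tested, and Lgr6 had 7 to 18 reads per library.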
